A study of Homo sapiens with 6 samples.

Results

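The genes described here are 46 components of the WNT/β-catenin pathway, chosen by gene symbol from a fixed list, and all 46 were present among the 28008 genes of the count table. They were measured by RNA-Seq in DU-145-DR/tet-MUC1shRNA cells. This line derives from DU-145, a human prostate cancer line, selected for resistance to docetaxel (DTX). It carries a doxycycline-inducible (DOX-inducible) hairpin against MUC1 in the pLKO-tet-puro vector, introduced by transduction and puromycin selection. The 3 DOX-negative cultures received 0.1% DMSO as vehicle, and the 3 DOX-positive cultures received DOX at 500 ng/ml, for a week as the study describes its DOX treatments. The labels name the hairpin only for the DOX-positive cultures and DTX resistance only for the DOX-negative ones; that all cultures share both is taken from the study. With 1 hairpin and no DOX-treated control hairpin among these libraries, MUC1 silencing and exposure to DOX cannot be told apart.

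In the canonical pathway, WNT proteins bind Frizzled receptors and the LRP5 or LRP6 co-receptor on the cell surface. Dishevelled proteins then disable a destruction complex built on APC and AXIN, which otherwise marks β-catenin for degradation through the kinases CK1α and GSK3. Stabilised β-catenin enters the nucleus and binds TCF/LEF factors, and among the genes it switches on are inhibitors of the pathway itself, such as AXIN2 and RNF43. The study takes up MUC1-C as a partner of β-catenin and TCF4, and the comparison here asks how transcripts of the pathway differ when MUC1 is silenced. By immunoblot of lysates and chromatin, the study reports less TCF4, β-catenin and MYC protein in these cells after silencing. The values here are RNA levels and do not measure those proteins. Beside β-catenin, TCF4 is a common name for the product of the gene TCF7L2, while the symbol TCF4 belongs to another gene. The study does not name TCF7L2, so which gene its TCF4 protein belongs to was not checked.

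The libraries held from 15092691 to 23243713 counts, so that 3 counts, taken as the detection floor, equalled between 0.129 and 0.199 CPM, the read count scaled to library size. This floor covers counting error only. Counts of the targeted gene MUC1 were 387, 484 and 396 without DOX and 75, 74 and 66 with DOX, or 17.6% of the DOX-negative mean in CPM, so each library matched its label. The epithelial markers EPCAM, KRT8, KRT18 and CDH1 were present and their summed level was higher with DOX, from 587 to 651 CPM in DOX-negative and from 1080 to 1160 CPM in DOX-positive libraries. The 4 neuroendocrine markers summed to at most 0.74 CPM in a library, with CHGA and INSM1 at 0 counts. The 7 stromal, endothelial and immune markers summed to between 4.10 and 5.85 CPM, mostly COL1A1, and CD3E was at 0. The part of the epithelial change in any WNT result was not tested. In whole cultures, fewer cells of a kind and less RNA per cell cannot be told apart.

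With DOX, single genes changed at several levels of the pathway, in both directions, and neither the transcript of β-catenin nor those of its DNA-binding partners passed the test. Of the 46 genes, 44 had enough counts to be tested, and 10 reached an adjusted p under 0.05 in edgeR (quasi-likelihood F test), with Benjamini-Hochberg adjustment over all 14292 genes tested. That share, 22.7%, lies beside 26.7% called among all genes. The 5 genes that were higher with DOX were CTNNBIP1, BCL9L, RNF43, APC and DKK1, where 13.0% of all genes were called higher. The 5 that were lower were NKD2, FZD2, DKK3, LGR4 and BCL9, where 13.7% of all genes were called lower. The CPM values of the 2 groups did not overlap for 17 of the 44 genes, or 38.6%, beside 39.8% of all genes tested. The median log2 fold change was 0.022 over the 44 genes and -0.0034 over all genes, and no member changed by 1 or more on that scale.

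**Figure D1:**
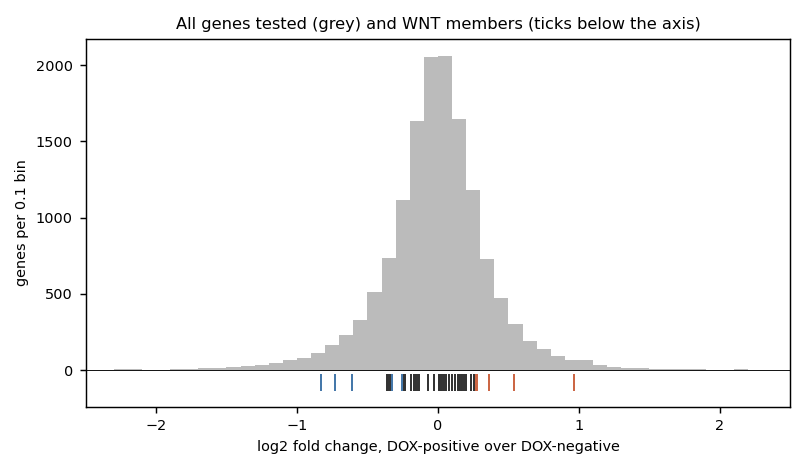
Histogram of the log2 fold change of DOX-positive over DOX-negative cells for 14292 genes tested, in bins of 0.1, with 1 tick below the axis for each of the 44 WNT pathway genes. Orange ticks are the 5 genes called higher, blue ticks the 5 called lower and black ticks the 34 not called; the axis ends at 2.5 on either side and leaves out 23 genes.

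**Figure D2:**
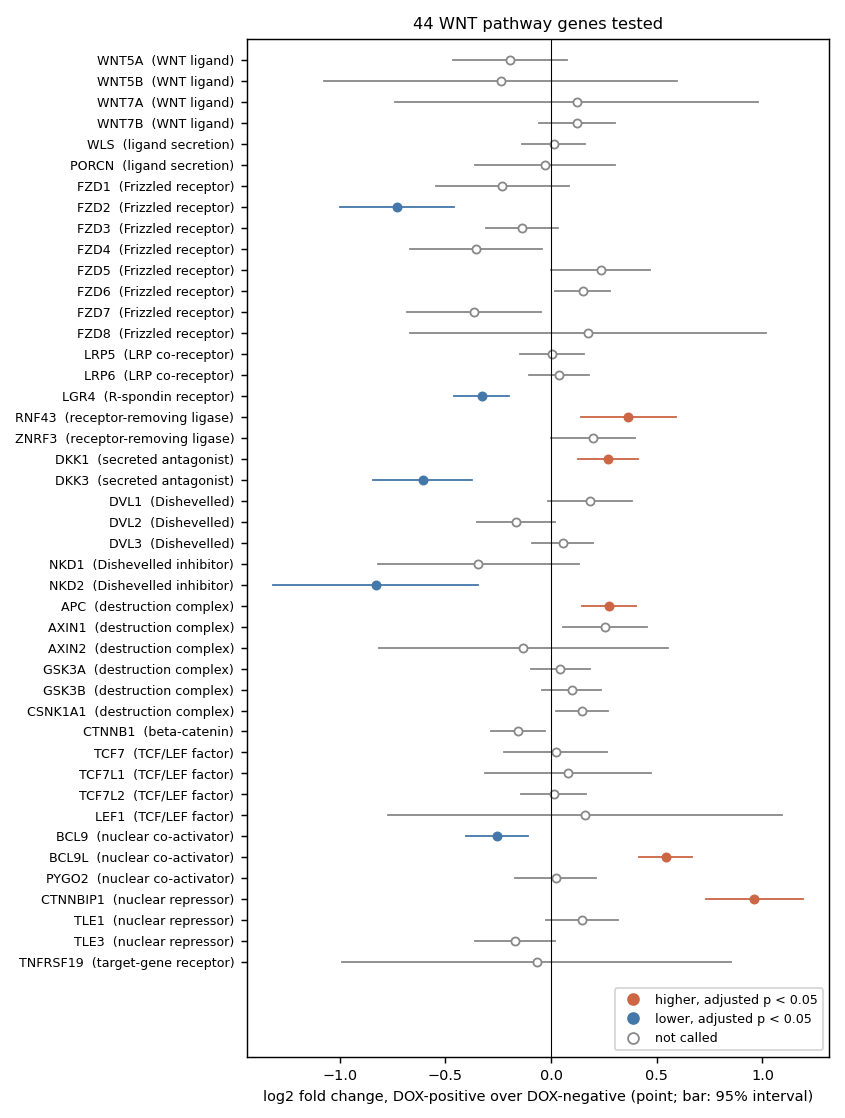
Log2 fold change (point) and 95% interval (bar) of the 44 WNT pathway genes tested, ordered by role from ligands to nuclear factors. Filled points had an edgeR adjusted p under 0.05, and the largest rise was in CTNNBIP1 (0.96) and the largest fall in NKD2 (-0.83).

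TCF/LEF factors bind DNA through a short core sequence. Promoter windows from RefSeq (GRCh38.p14), from 250 bases before to 50 bases after a start site, were found for 34 of the 46 genes, as 47 windows. They were searched on both strands for the core in 4 forms, namely the form CTTTGAA, the form CTTTGAT, the form CTTTGTA and the form CTTTGTT, which share their first 5 letters. A match stood in 3 of the 47 windows, or 6.38%. The share was 13.7% of all 35097 promoter windows and 11.2% of the 22183 windows of protein-coding genes. No window was found for AXIN2, LRP6, FZD2, FZD3, FZD6, FZD7, ZNRF3, LGR5, DKK3, WNT7B, NKD1 or BCL9L, so these were not searched. A match is one of sequence only, as binding was not measured. The matches lay in DKK1, TCF7 and TCF7L2, shown here 5′ to 3′ on the strand of the gene with the core in capitals because they are the only matches in the 47 windows searched.
DKK1 first core (chr10:52314175-52314204, plus strand, 95 bases before the start): ccctcccagcgCTTTGAAatcccatcccgg
DKK1 second core (chr10:52314194-52314223, plus strand, 76 bases before the start): tcccatcccggCTTTGTTgtctccctccca
TCF7 core, read on the opposite strand (chr5:134123557-134123586, plus strand, 50 bases before 1 of its 2 listed starts): ggccccactggAACAAAGgaggagagaggc
TCF7L2 core (chr10:113126489-113126518, plus strand, 133 bases before 1 of its 3 listed starts): aaaatatcaggCTTTGTTcttttgattgaa
Both cores of DKK1 precede its only listed start. Of these 3 genes, DKK1 was called higher and TCF7 and TCF7L2 were not called. Of the 10 called genes 7 had a window, and DKK1 was the only one of these with a match.

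Per length, the most abundant pathway transcript was CSNK1A1, which encodes CK1α, the kinase that primes β-catenin for degradation. Levels between genes are given as TPM after leaving out 5 short noncoding RNAs, and CSNK1A1 lay between 499.8 and 554 TPM in the 6 libraries. Next came FZD6 at 205 to 240 TPM, the secreted WNT antagonist DKK1 at 157 to 213 TPM and CTNNB1, which encodes β-catenin, at 148 to 187 TPM. The ranges of FZD6 and DKK1 overlapped, as did those of DKK1 and CTNNB1. Genes that β-catenin is known to switch on were spread over this range. DKK1 is among them, and TCF7 lay at 10.9 to 15.1 TPM, ZNRF3 at 9.43 to 11.8 TPM and RNF43 at 7.27 to 10.8 TPM. Several others stood at the low end. AXIN2 was at 0.795 to 2.04 TPM, NKD1 at 0.733 to 1.53 TPM, LEF1 at 0.245 to 0.727 TPM and TNFRSF19 at 0.250 to 0.441 TPM. LGR5, the intestinal stem cell receptor for R-spondins, had 0 or 1 count in each library, and WNT10A had 3 to 14, so neither was tested.

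**Figure D3:**
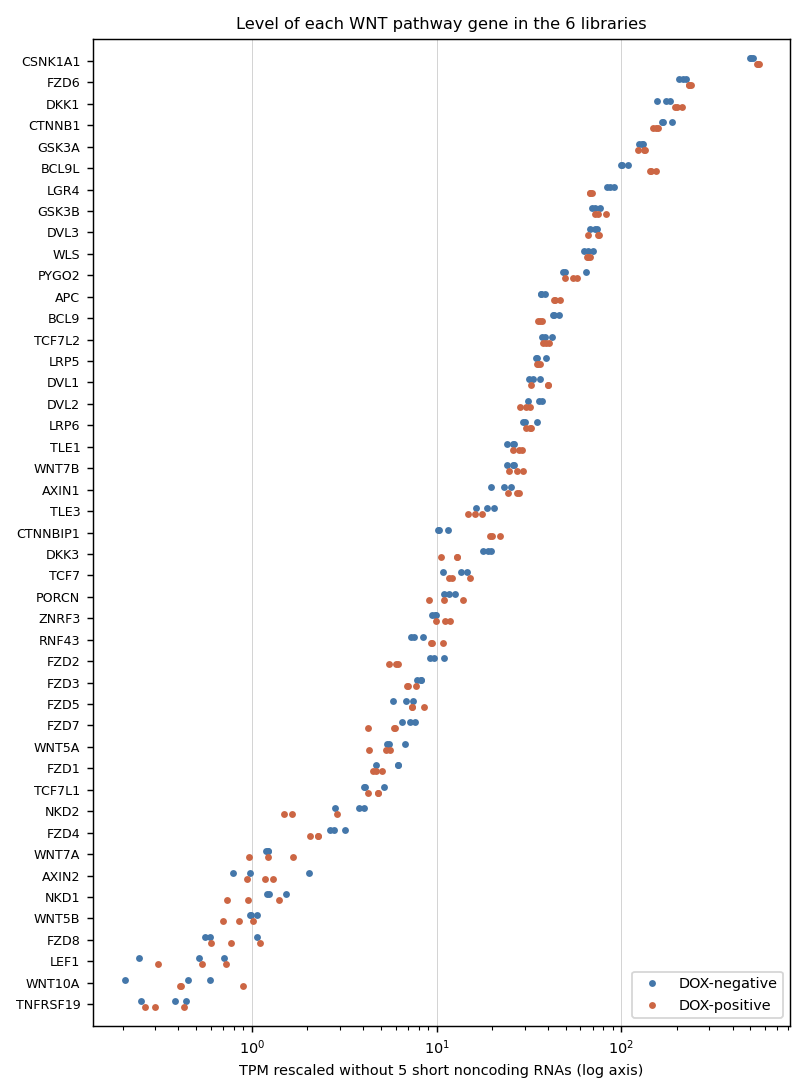
TPM, rescaled without 5 short noncoding RNAs (log axis), of the WNT pathway genes with a value above 0 in every library, 1 point per library (blue DOX-negative, orange DOX-positive). CSNK1A1 lies highest at 499.8 to 554 TPM and TNFRSF19 lowest at 0.250 to 0.441 TPM; LGR5, with 0 or 1 count per library, is left out.

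None of the 4 WNT ligands tested passed the threshold. WNT7B, a canonical ligand, was the main one measured, and held 74.8 ± 1.86% (SD, n = 3) of the TPM of the 5 listed ligands without DOX and 77.7 ± 2.33% with DOX. Its log2 fold change was 0.12 ± 0.0865 (SE) at an edgeR adjusted p of 0.314. WNT5A, best known for β-catenin-independent signalling, had a log2 fold change of -0.19 ± 0.130 (SE) with an adjusted p of 0.291 in edgeR. WNT5B and WNT7A had 8 to 18 counts per library, and intervals from -1.07 to 0.60 and from -0.74 to 0.98. At this depth changes within those intervals cannot be told from none. WLS, the carrier that brings WNT proteins to the surface, and PORCN, which attaches their lipid, had log2 fold changes of 0.012 and -0.029.

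Among the 8 Frizzled receptors, FZD2 fell. Its level was 15.0, 12.4 and 13.7 CPM in DOX-negative replicates 1 to 3, and 7.84, 8.62 and 8.34 CPM in DOX-positive replicates 1 to 3. The lowest DOX-negative library was above the highest DOX-positive one. The mean dropped from 13.7 ± 1.33 to 8.27 ± 0.392 CPM (SD over 3 libraries each), a log2 fold change of -0.73 ± 0.131 (SE) with an adjusted p of 0.000242 in edgeR. FZD2 lies at chr17:44557459-44559570 (GRCh38, GENCODE 29), all 2112 bases of which are exon, and none of them is shared with another annotated gene.

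The Frizzled pool was dominated by FZD6, a receptor known for planar polarity and for restraining canonical signalling. FZD6 held 84.4%, 83.2% and 84.3% of the summed TPM of the 8 receptors without DOX and 87.5%, 86.6% and 87.9% with DOX, without overlap. FZD6 itself changed by 0.15 (SE 0.0617, edgeR adjusted p 0.0792), which missed the threshold. The share of FZD2 went from 3.88 ± 0.220% to 2.20 ± 0.121% (SD, n = 3 each). The ratio of FZD6 to FZD2 TPM was 21.7 ± 1.09 without and 39.8 ± 2.37 with DOX. Its rise follows from FZD6 being higher and FZD2 lower in CPM, each without overlap, and is not a further result. A ratio within a library does not depend on how libraries are scaled, and an exact permutation test of 3 against 3 libraries cannot go below p = 0.1. FZD7 (-0.36) and FZD4 (-0.36) also had groups that did not overlap, with edgeR adjusted p of 0.0840 and 0.0876. So did FZD5 (0.24, edgeR adjusted p 0.129) and FZD6 in CPM, which were higher with DOX. Among all genes tested, 39.8% had groups that did not overlap. FZD1, FZD3 and FZD8 had log2 fold changes of -0.23, -0.14 and 0.17 and did not pass.

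**Figure D4:**
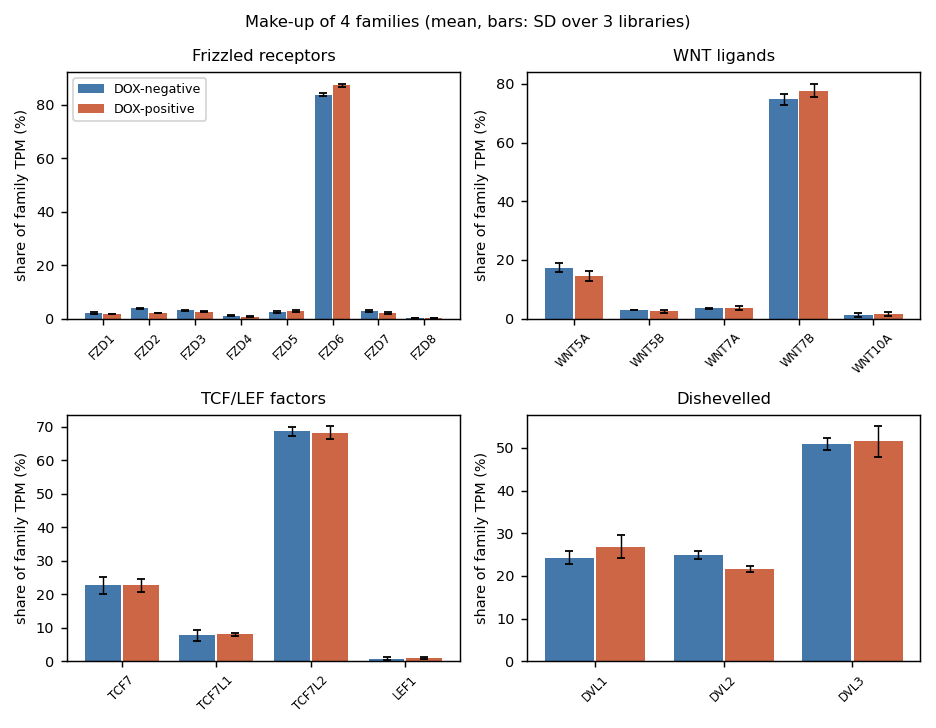
Share of the summed TPM of a family held by each member, as the mean over 3 libraries with the SD, for the Frizzled receptors, the 5 listed WNT ligands, the TCF/LEF factors and the Dishevelled proteins. FZD6 held 83.9% of the Frizzled TPM without and 87.3% with DOX, and TCF7L2 held 68.6% and 68.3% of the TCF/LEF TPM.

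The co-receptors LRP5 and LRP6 had log2 fold changes of 0.0048 and 0.036, with intervals from -0.15 to 0.16 and from -0.11 to 0.18. Changes in receptor turnover genes were called on both sides of that step. LGR4, the R-spondin receptor that protects Frizzled from removal, had 174, 163 and 166 CPM in the DOX-negative libraries. It had 134, 134 and 132 CPM in the DOX-positive libraries, all below the DOX-negative ones. Means were 168 ± 5.73 and 134 ± 1.26 CPM (SD over 3 libraries each), with a log2 fold change of -0.33 ± 0.0625 (SE) and an adjusted p of 0.000446 in edgeR. LGR4 spans chr11:27365961-27472775 on the minus strand and shares no exon bases with another annotated gene.

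RNF43, the membrane ligase that marks Frizzled receptors for removal, moved the other way. It was at 18.2, 15.3 and 16.8 CPM without DOX and 20.9, 20.5 and 23.5 CPM with DOX, again without overlap. This was a rise of 0.37 ± 0.108 (SE) on the log2 scale, at an edgeR adjusted p of 0.0147. It was no longer called when DOX-negative replicate 2 (adjusted p 0.0657) or DOX-positive replicate 3 (0.0792) was left out. At chr17:58352500-58417595, 59.5% of the exon bases of RNF43 are shared with SUPT4H1 or AC004687.2 on the same strand, so its count is uncertain. Its partner ZNRF3 had a log2 fold change of 0.20 ± 0.0948 (SE) with an adjusted p of 0.128 in edgeR, and its groups did not overlap. The RNF43 to ZNRF3 ratio was 0.800 ± 0.0454 without and 0.902 ± 0.0920 with DOX (SD, n = 3 each), and its groups overlapped.

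The listed members of the Dickkopf family moved in opposite directions. DKK1, which blocks LRP5 and LRP6 from outside the cell and carries the pair of cores shown above, was at 109, 113 and 102 CPM without DOX. With DOX it was at 130.5, 135 and 125 CPM, all above the DOX-negative libraries. The log2 fold change was 0.27 ± 0.0676 (SE) at an edgeR adjusted p of 0.00490. DKK3, the divergent family member often silenced in cancers, was at 20.9, 19.9 and 19.7 CPM without DOX and 14.2, 13.8 and 11.4 CPM with DOX. Means were 20.2 ± 0.653 and 13.2 ± 1.51 CPM (SD over 3 libraries each), with a log2 fold change of -0.61 ± 0.113 (SE) and an adjusted p of 0.000353 in edgeR. Within each library the TPM ratio of DKK1 to DKK3 was 9.09 ± 0.519 without and 16.9 ± 1.49 with DOX, and the groups did not overlap. That separation follows from DKK1 rising and DKK3 falling, each without overlap, and is not a further result. DKK1 lies at chr10:52314296-52318042, where PRKG1-AS1 on the opposite strand covers 9.61% of its exon bases, and DKK3 lies at chr11:11963106-12009769 with none covered.

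**Figure D5:**
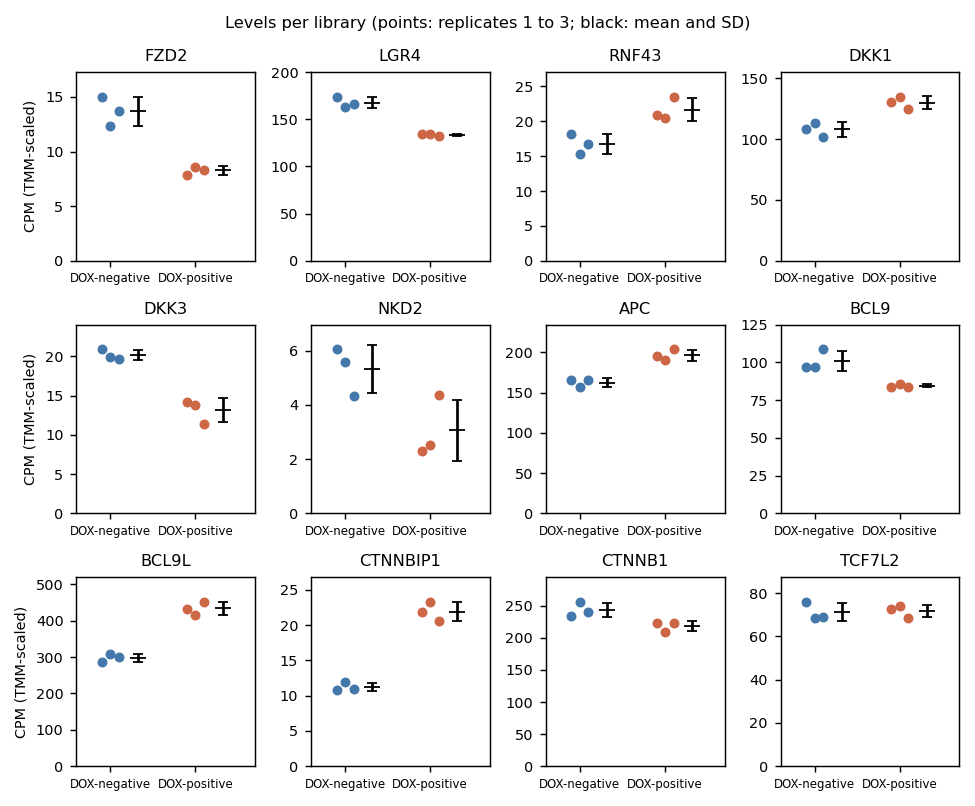
CPM, scaled with TMM factors, of the 10 called WNT pathway genes, CTNNB1 and TCF7L2 in each library (points, replicates 1 to 3), with the mean and SD in black; each axis starts at 0. The groups are apart in 9 of the 10 called genes and in CTNNB1, and overlap in NKD2 and TCF7L2.

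The 3 Dishevelled genes, which pass the signal on from the receptors, did not pass the threshold. DVL3 held 50.9 ± 1.34% of their summed TPM without and 51.5 ± 3.55% with DOX, and the log2 fold changes of DVL1, DVL2 and DVL3 were 0.18, -0.17 and 0.055. DVL1 passed it without DOX-positive replicate 2, at 0.28 with an edgeR adjusted p of 0.0209. Both Naked cuticle genes, whose products bind Dishevelled and inhibit it, had negative values. NKD2 (chr5:1008829-1038943) had 110, 109 and 87 counts without DOX and 53, 48 and 65 with it. In CPM its groups overlapped, since DOX-positive replicate 3 (4.37 CPM) was above DOX-negative replicate 3 (4.33 CPM). Its log2 fold change was -0.83 ± 0.234 (SE) at an edgeR adjusted p of 0.0110, and it was no longer called when DOX-negative replicate 1 (0.0599) or DOX-positive replicate 1 (0.0699) was left out. Without DOX-positive replicate 3 the log2 fold change was -1.14. NKD1 was at -0.34 (SE 0.228, edgeR adjusted p 0.288), and passed only without DOX-positive replicate 2, at -0.64 with an adjusted p of 0.0459.

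In the destruction complex, APC was the 1 gene of 6 that passed. APC (chr5:112707498-112846239), the scaffold that holds β-catenin for phosphorylation, was at 166, 156 and 165 CPM without DOX and at 195, 189.9 and 204 CPM with DOX. The lowest library with DOX was above the highest without, and the log2 fold change was 0.27 ± 0.0623 (SE) at an edgeR adjusted p of 0.00222. AXIN1, the main AXIN scaffold, had a log2 fold change of 0.25 and just missed the threshold (SE 0.0952, edgeR adjusted p 0.0519). It passed in 4 of 15 alternatives, and its groups overlapped. CSNK1A1 was at 0.15 (SE 0.0586, edgeR adjusted p 0.0694) with groups that did not overlap, and passed under DESeq2 at 0.0242. In the annotation 37.4% of its exon bases belong also to AC021078.1. GSK3A and GSK3B, the kinases that act after CK1α, were at 0.044 and 0.097, with intervals from -0.10 to 0.18 and from -0.04 to 0.24.

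AXIN2, the standard transcriptional readout of β-catenin activity, had 22, 60 and 31 counts without DOX and 43, 28 and 30 counts with DOX. The groups overlapped fully, and DOX-negative replicate 2 was the highest library. Its log2 fold change was -0.13 with an interval from -0.82 to 0.55 (edgeR adjusted p 0.816), and without DOX-negative replicate 2 it was 0.36 (adjusted p 0.513). At this depth a change within the interval from -0.82 to 0.55 cannot be told from none. AC004805.1 shares 25.2% of its exon bases.

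CTNNB1 (chr3:41194741-41260096) was at 235, 256 and 239.9 CPM without DOX and at 224, 209 and 223 CPM with DOX. The DOX-positive libraries lay below the DOX-negative ones, at 89.8% of their mean, but the change of -0.16 (interval from -0.28 to -0.03) missed the threshold with an edgeR adjusted p of 0.0682. TCF7L2 (chr10:112950250-113167678), the main TCF/LEF factor measured, was at 75.96, 68.3 and 69.0 CPM without DOX and 72.7, 73.9 and 68.4 CPM with DOX. The groups overlapped, and its interval ran from -0.14 to 0.17. It held 68.6 ± 1.36% of the TPM of the 4 TCF/LEF genes without and 68.3 ± 1.84% with DOX (SD, n = 3 each). TCF7 followed with 22.7% in either group. TCF7, TCF7L1 and LEF1 had log2 fold changes of 0.022, 0.080 and 0.16, the last on 7 to 21 counts per library.

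The smallest adjusted p-values among the 44 genes belonged to BCL9L and CTNNBIP1, whose products bind β-catenin in the nucleus. BCL9L, one of a pair of related co-activators that link β-catenin to PYGO proteins, was at 286, 309 and 299 CPM without DOX and at 432, 417 and 452 CPM with DOX. Means were 298 ± 11.5 and 434 ± 17.6 CPM (SD over 3 libraries each), with a log2 fold change of 0.54 ± 0.0612 (SE) and an adjusted p of 8.16e-07 in edgeR. BCL9, its paralog, was at 97.0, 97.1 and 109 CPM without DOX and at 83.9, 85.8 and 83.8 CPM with DOX. It changed by -0.26 (SE 0.0703, edgeR adjusted p 0.00913), a call that was lost without DOX-negative replicate 3 (-0.20, adjusted p 0.0639). The TPM ratio of BCL9L to BCL9 in the libraries was 2.33, 2.52 and 2.18 without DOX and 4.08, 3.85 and 4.27 with DOX. Every DOX-positive ratio was above every DOX-negative one. As BCL9L rose and BCL9 fell, each without overlap, this follows from their values and is not a further result. BCL9L spans chr11:118893875-118925608, where CXCR5, MIR4492 and UPK2 on the opposite strand cover 38.8% of its exon bases, and BCL9 spans chr1:147541412-147626216 with none covered. Reads from opposite strands can be told apart only where the counting used strand, which is not stated. PYGO2, a partner of both, was at 0.022 (edgeR adjusted p 0.892). PYGO1, from the second list described below, was called lower, with groups that did not overlap. It fell from 37.5 ± 1.25 to 26.3 ± 3.42 CPM (SD over 3 libraries each, log2 fold change -0.51, edgeR adjusted p 0.000399).

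CTNNBIP1, which encodes ICAT, a small protein that keeps β-catenin from binding TCF factors, had the largest rise of the 44 genes tested. It had 197, 233 and 221 counts without DOX and 500, 446 and 307 with it. In CPM these were 10.8, 11.9 and 11.0 against 21.8, 23.3 and 20.6, so that each DOX-positive library held at least 20.6 CPM and no DOX-negative one more than 11.9. The mean rose from 11.3 ± 0.580 to 21.9 ± 1.33 CPM (SD, n = 3 each), or to 195% of the DOX-negative level. The log2 fold change was 0.96 ± 0.110 (SE) at an edgeR adjusted p of 1.02e-06, and it stayed between 0.88 and 1.01 in the 15 alternatives. The gene lies at chr1:9848276-9910336 on the minus strand, and AL357140.1 on the opposite strand covers 12.7% of its exon bases. TLE1 and TLE3, which encode Groucho-type co-repressors of TCF factors, did not pass, at 0.14 and -0.17. From the second list described below, TLE2 was called lower (-0.42, edgeR adjusted p 0.00331), with groups that did not overlap. TLE4 (-0.029) and TLE5 (-0.025) of that list were not called.

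Roles were grouped by effect on signalling after the values were seen, and 15 of the 46 genes belong to roles that limit the pathway. Genes were placed by listed role only. FZD6 therefore stands outside these 15 as a Frizzled receptor, and DKK3 stands among them as a secreted antagonist. Of these 15, 4 were called higher (RNF43, DKK1, APC and CTNNBIP1), 2 were called lower (DKK3 and NKD2) and 9 were not called, where 13.0% of all genes were called higher and 13.7% lower. Of the other 31 genes, 29 were tested, 1 was called higher (BCL9L), 3 were called lower (FZD2, LGR4 and BCL9) and 25 were not called. The median log2 fold change was 0.145 over the first group and 0.012 over the second, beside -0.0034 over all genes. The difference between the groups was not tested. Over all 34 members not called, the adjusted p ranged from 0.0519 to 0.970, and 8 had groups that did not overlap. Among all genes tested, called ones included, 39.8% had groups that did not overlap.

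Further components of the pathway were taken from a second list of 85 genes, of which 52 were tested. Of these, 4 were called higher and 11 lower (28.8% called), near the 26.7% called among all genes, and their median log2 fold change was -0.014. The lower genes comprised 4 of 9 tested in planar polarity, 2 of 12 nuclear co-factors (PYGO1 and TLE2) and 2 of 3 membrane antagonists. They also included 1 of 2 secreted antagonists, 1 of 2 R-spondins or their receptors, and 1 of 12 in the destruction complex or its turnover. The last of these was RNF146 (log2 fold change -0.55, edgeR adjusted p 0.00157). RSPO3, a ligand of LGR4, was at 19.0, 22.4 and 17.1 CPM without DOX and 9.76, 13.5 and 7.53 CPM with DOX, all DOX-positive libraries being below the DOX-negative ones (log2 fold change -0.91, SE 0.156, edgeR adjusted p 0.000152). SFRP1, a secreted inhibitor of WNT ligands, went from 58.0 ± 5.72 down to 37.4 ± 2.08 CPM (SD over 3 libraries each, log2 fold change -0.63, SE 0.0867, edgeR adjusted p 1.07e-05). APCDD1, a membrane inhibitor, had 29, 52 and 31 counts against 18, 18 and 9 counts, a log2 fold change of -1.29 ± 0.355 (SE) with an adjusted p of 0.00939 in edgeR, and the call was lost without DOX-negative replicate 2 (adjusted p 0.0902).

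The 9 planar polarity genes orient cells within a sheet through Frizzled without β-catenin. Of these, 4 were called lower and 1 higher, where 13.7% and 13.0% of all genes were. The list was chosen with earlier results of these data known, so these counts cannot show an excess of calls in this branch. VANGL2 was at 26.0, 27.3 and 24.7 CPM without DOX and 11.0, 13.0 and 12.8 CPM with DOX, a log2 fold change of -1.09 ± 0.109 (SE) with an adjusted p of 1.40e-07 in edgeR. CELSR1 and CELSR2, large cadherins of that branch, changed by -0.75 and -0.73 (edgeR adjusted p 0.000117 and 6.50e-05). CELSR3 changed by 0.36 (edgeR adjusted p 0.0126), a call lost without DOX-negative replicate 3 (adjusted p 0.0840), without DOX-positive replicate 1 (0.0546) and from log2(TPM + 1) and log2(TPM + 0.1) (0.143 and 0.154). At the cell junction, where β-catenin binds cadherins, CDH1 (E-cadherin) rose from 41.8 ± 3.81 to 79.2 ± 4.94 CPM (SD over 3 libraries each, log2 fold change 0.92, edgeR adjusted p 3.01e-08). JUP, the β-catenin relative plakoglobin, rose by 0.40 on the log2 scale (edgeR adjusted p 0.000444). USP34, a deubiquitinase of AXIN, was at 0.20 with an edgeR adjusted p of 0.0245, and was lost in 8 of 15 alternatives, among them the fits without DOX-negative replicate 1 or 3 and without DOX-positive replicate 2 or 3.

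Genes outside the 46 that are known TCF/β-catenin targets in some tissue were taken from another list of 30, of which 23 were tested. Of these, 10 were called higher and 6 lower, 69.6% against 26.7% of all genes, and the median log2 fold change was 0.22. The list was chosen with earlier results of these data known, so this share cannot show an excess of calls among targets. Many of them answer to several pathways, and the list says nothing of which one was acting here. Among the higher genes, SOX9 rose by 0.72, JUN by 0.65, MYC by 0.64, FOSL1 by 0.60, PLAUR by 0.55 and PPARD by 0.40 (log2). Each had an edgeR adjusted p of at most 0.000212. MYC RNA was at 121 ± 5.56 CPM without and 188 ± 18.7 CPM with DOX (SD over 3 libraries each). That direction is opposite to the fall in MYC protein that the study reports, and the reason was not tested. From RNA-Seq of these cells the study also associates MUC1-C with a MYC target gene set, which was not examined here. The lower genes included EPHB3, an ephrin receptor of the intestinal crypt, at -1.32 (edgeR adjusted p 1.82e-05), ID2 at -1.04, LBH at -1.11, TBX3 at -0.66 and TCF12 at -0.32. EPHB2, at -0.54 (edgeR adjusted p 0.0274), lost its call in 4 of 6 fits on 5 libraries, those without DOX-negative replicate 1 or 3 and without DOX-positive replicate 1 or 2. SP5, a target close to AXIN2 in its dependence on β-catenin, had 10 to 23 counts per library and a log2 fold change of -0.095 (edgeR adjusted p 0.897).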

How the data were processed

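RNA-Seq libraries (TruSeq Stranded mRNA) came from RNA of triplicate cultures, 3 per group, and groups and replicate numbers were taken from the sample titles. The table columns write TR where the titles write DR and were matched by DOX state and number; 0 columns were left out. The authors deposited whole-number read counts per gene symbol and a table of TPM, in which each library sums to the same total. The submitters' processing notes name STAR, DESeq2 and GRCh38; versions, counting, strand setting and annotation are not given in the sources used here. In the deposited TPM, RN7SK, RPPH1 and the RN7SL genes 1, 2 and 3 (5 short noncoding RNAs) held 34.4% to 64.4% of a library, so TPM were rescaled without them.

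Counts were fitted in R 4.3.3 with edgeR 4.0.16 (filterByExpr, TMM factors, glmQLFit and glmQLFTest, two-sided, group as the only term), with Benjamini-Hochberg adjustment and a threshold of 0.05. CPM use TMM-scaled totals. The standard error is the absolute log2 fold change over the square root of F, and intervals are 95%. The fits were tested on simulated counts. Within-group pairs of libraries differed beyond sampling noise (chi-square per degree of freedom from 3.78 to 20.2). Alternatives were DESeq2 1.42.0, RLE factors, total counts, other filters, a replicate block, limma 3.58.1 on log2(TPM + 1) and log2(TPM + 0.1), thinned counts and leaving out each library. Fold changes on the log2(TPM + pseudocount) scale understate changes of low genes. Gene positions and overlaps come from GENCODE 29 (GRCh38). Older symbols were matched through RefSeq synonyms. Some marker genes are not reported here. Members, lists and tests were chosen with earlier results of these data known. Values in every library were given for called members and for CTNNB1, TCF7L2 and AXIN2; from the other lists, up to 6 genes in each direction were named by size of change among called genes with at least 1 CPM. COL1A1, NOTUM, SP5, CTNND1, CSNK1E, PYGO1, TLE2, TLE4, TLE5 and RNF146 were named after their values were seen.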

Additional observations from a re-analysis of the deposited data

How the results depend on the processing

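Over 15 alternatives, the number of genes called stayed between 2784 and 4004, against 3816, and that of members called between 9 and 12, against 10. Of the 10 called members, 7 kept their call in every alternative, and BCL9, RNF43 and NKD2 did not; RNF43 was also lost from log2(TPM + 1) and log2(TPM + 0.1), at adjusted p of 0.0806 and 0.0801. Of the 34 others, AXIN1, CSNK1A1, CTNNB1, DVL1 and NKD1 passed in at least 1 alternative, CTNNB1 with total counts (adjusted p 0.0256). The sign held throughout for 32 of the 44 members. Total counts reversed TCF7 (-0.014), LRP5 (-0.031), TCF7L2 (-0.022), PYGO2 (-0.014) and WLS (-0.023). The log2(TPM + 1) and log2(TPM + 0.1) settings reversed TCF7 (-0.0047 and -0.0049), LRP5 (-0.019 and -0.020), TCF7L2 (-0.012 and -0.012) and WLS (-0.010 and -0.010). Thinned counts reversed WNT7A (-0.086), PORCN (0.0015), LRP5 (-0.0012) and WLS (-0.014). Leaving out each library gave ranges across 0 for LRP5 (-0.030 to 0.044), PYGO2 (-0.054 to 0.15), WLS (-0.032 to 0.041), AXIN2 (-0.37 to 0.36), TCF7L1 (-0.0013 to 0.23), TCF7L2 (-0.013 to 0.062), TNFRSF19 (-0.34 to 0.087), LEF1 (-0.17 to 0.49), TCF7 (-0.099 to 0.10), PORCN (-0.21 to 0.11), WNT7A (-0.099 to 0.27) and FZD8 (-0.10 to 0.52). The cause was not tested. Of the 22 other pathway and target genes named by size of change, 18 kept their call throughout. The replicate block called 3158 genes and 10 members. Among the members and these 22 genes, USP34 alone lost its call under it. Libraries with the same number did not deviate together (correlations of -0.070, -0.14 and -0.037), so the numbers were not taken as pairs. Genes under about 20 counts per library, such as LEF1, FZD8 and TNFRSF19, had standard errors above 0.40, which limits what could be detected.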

Other observations

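Several feedback targets of the pathway were low and uneven between DOX-negative libraries. DOX-negative replicate 2 held 3.07 CPM of AXIN2 against 1.21 and 1.54 CPM in replicates 1 and 3. It also held 2.66 CPM of APCDD1 against 1.60 and 1.54 CPM, and 4.91 CPM of NKD1 against 3.91 and 4.18 CPM. NOTUM, which encodes an enzyme that inactivates WNT proteins, had 10 counts in that library against 2 and 3 in the other 2 without DOX and 0, 1 and 0 with DOX; it did not pass the filter. LEF1 went the other way, with 7 counts in that library against 19 and 16. Of 13 feedback targets examined after these values were seen, 4 were highest in DOX-negative replicate 2 and 4 in DOX-positive replicate 2. DOX-negative replicate 2 was also the library in which short noncoding RNAs held the lowest share of TPM, 34.4% against 51.2% to 64.4% in the others, and the part of this in the target levels was not tested.

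CTNND1, which encodes the junction protein p120-catenin, had only 39 to 77 counts per library, and CSNK1E, which encodes the kinase CK1ε, had 0 to 8. In the GENCODE 29 annotation the readthrough genes TMX2-CTNND1 and TPTEP2-CSNK1E share exons with them on the same strand. Same-strand genes cover 4.64% of the exon bases of CTNND1, AP001931.1 included, and 21.1% of those of CSNK1E. Whether the counting dropped shared reads was not tested.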
